A study of Mus musculus with 14 samples.

Results

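The alphaTC6 line derives from mouse pancreatic alpha cells, the islet cells that make glucagon. The genes that carried several compact NKX2.2 regions in it were examined. A compact region here lies on chromosomes 1 to 19 or X, is at most 1000 bp wide and starts at 3500000 bp or higher. Each such region was assigned to the nearest protein-coding gene, with a distance of 0 where it overlapped the gene, and genes with 5 or more were kept. This gave 666 regions at 107 genes. They were 9.85% of the 6758 regions in the authors' deposited table, 10.1% of the 6601 compact regions, and their genes were 2.39% of the 4483 genes with at least 1 compact region. The genes were thus selected on the measured positions and widths of the deposited regions, and their number of regions is a description of the choice.

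The study compared NKX2.2 occupancy by ChIP-seq (sequencing of DNA recovered with an antibody to the bound protein) between cultures reverse-transfected for 48 h with an siRNA against Klf4 (3 ChIP and 3 input samples) and with siScramble (4 ChIP and 4 input samples). All 14 samples are labelled alphaTC6, alpha cells and genotype WT, and all were transfected with RNAiMax Lipofectamine. The series design text calls the replicates biological, without saying how they were separated, and all come from a single cell line. The deposited table holds 1 comparison of the ChIP groups made with csaw, which counts reads in short windows, tests each window and joins neighbouring windows into regions. It holds no value for any library, so sequencing depth and the spread between replicates are unknown. The p-value of a region and its false discovery rate (FDR, adjusted over all regions) are the authors' own, and are the only measure here of whether a difference exceeds that spread. It is not stated which group stands on top in the fold change, so values are called positive or negative as deposited. Each value is that of 1 representative window of the region, and its sign is counted here unless best windows are named. The authors' separate direction for each region listed 323 of the 666 as up, 186 as down and 157 as mixed. The deposited table holds no expression, so the alpha-cell label could not be checked against marker transcripts. Gcg, which encodes glucagon, had 1 compact region and is not among the 107 genes.

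NKX2.2 is a homeodomain transcription factor of the NK2 class, required for the development of pancreatic endocrine cells, and its DNA-binding domain recognises a core of AAGTG. It can repress or activate, and represses through corepressors of the Groucho family. KLF4 is a zinc-finger transcription factor that binds GC-rich and CACCC-type sequences. Genes of developmental and cell identity programmes often have many binding sites for one factor, spread through introns and flanking DNA, and a distal site need not act on the gene nearest to it.

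Few of these regions lay at promoters. Of those with a known distance, 7.44% were within 1 kb of a RefSeq start, against 29.2% at genes with 1 to 4 compact regions. RefSeq promoter windows of build GRCm38.p6, each running from 250 bases before to 50 bases after a gene's start, were matched by symbol to 88 of the 107 genes, and 34 of the 666 regions touched at least 1 window of any gene. For 21 of the 34 regions this was a promoter of the gene they were assigned to, at 20 genes. The windows below show where the deposited NKX2.2 region sits at the promoter, in capitals, with all other bases in lower case. They belong to Hdac4, Snd1, Mical3 and Gse1, which are among the 15 genes described for their many regions, and to 3110082I17Rik, which has a region at an FDR of 0.05 or lower. A first Myt1l window and a window of the long non-coding gene Gm35200 at Cd244a were added after their values were seen. The starts used for Hdac4, Mical3 and Gse1 lie inside the gene. No region of Hdac4, Mical3 or Gse1 lies within 1 kb of a coding-gene end.
Hdac4, chr1:92180292-92180591, minus strand: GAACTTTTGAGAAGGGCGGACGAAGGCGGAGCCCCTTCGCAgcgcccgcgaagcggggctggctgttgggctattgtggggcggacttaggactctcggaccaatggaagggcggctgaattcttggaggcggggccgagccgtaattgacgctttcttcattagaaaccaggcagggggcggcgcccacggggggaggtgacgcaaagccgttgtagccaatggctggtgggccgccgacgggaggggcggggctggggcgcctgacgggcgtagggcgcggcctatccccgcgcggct
Snd1, chr6:28480098-28480397, plus strand: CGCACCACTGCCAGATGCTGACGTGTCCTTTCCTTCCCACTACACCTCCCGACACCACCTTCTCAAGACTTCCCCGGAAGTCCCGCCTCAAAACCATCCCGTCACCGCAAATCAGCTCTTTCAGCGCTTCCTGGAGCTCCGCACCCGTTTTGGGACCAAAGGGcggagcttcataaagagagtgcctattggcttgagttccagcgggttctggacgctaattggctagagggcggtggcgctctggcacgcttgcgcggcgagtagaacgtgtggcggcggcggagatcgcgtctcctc
Mical3, chr6:121130973-121131272, minus strand: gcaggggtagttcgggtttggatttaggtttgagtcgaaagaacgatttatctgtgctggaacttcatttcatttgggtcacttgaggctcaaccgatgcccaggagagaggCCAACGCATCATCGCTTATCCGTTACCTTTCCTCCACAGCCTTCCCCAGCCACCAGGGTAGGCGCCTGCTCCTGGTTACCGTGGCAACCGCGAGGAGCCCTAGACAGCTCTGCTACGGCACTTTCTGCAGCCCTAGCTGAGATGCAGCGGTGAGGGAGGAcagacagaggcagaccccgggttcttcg
Gse1, chr8:120537159-120537458, plus strand: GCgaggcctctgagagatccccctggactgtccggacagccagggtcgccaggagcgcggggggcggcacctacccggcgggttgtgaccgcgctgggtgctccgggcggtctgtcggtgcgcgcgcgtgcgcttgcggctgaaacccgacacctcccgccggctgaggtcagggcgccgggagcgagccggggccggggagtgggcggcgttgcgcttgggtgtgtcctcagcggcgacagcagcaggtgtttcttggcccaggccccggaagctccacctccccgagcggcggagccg
3110082I17Rik, chr5:139460485-139460784, minus strand: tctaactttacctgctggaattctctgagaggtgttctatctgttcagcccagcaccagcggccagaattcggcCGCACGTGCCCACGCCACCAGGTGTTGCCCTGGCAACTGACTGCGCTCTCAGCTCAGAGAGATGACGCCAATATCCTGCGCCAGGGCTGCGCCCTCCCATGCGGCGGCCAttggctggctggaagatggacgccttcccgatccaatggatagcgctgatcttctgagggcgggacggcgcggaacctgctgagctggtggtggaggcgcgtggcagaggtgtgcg
Myt1l, chr12:29528134-29528433, plus strand: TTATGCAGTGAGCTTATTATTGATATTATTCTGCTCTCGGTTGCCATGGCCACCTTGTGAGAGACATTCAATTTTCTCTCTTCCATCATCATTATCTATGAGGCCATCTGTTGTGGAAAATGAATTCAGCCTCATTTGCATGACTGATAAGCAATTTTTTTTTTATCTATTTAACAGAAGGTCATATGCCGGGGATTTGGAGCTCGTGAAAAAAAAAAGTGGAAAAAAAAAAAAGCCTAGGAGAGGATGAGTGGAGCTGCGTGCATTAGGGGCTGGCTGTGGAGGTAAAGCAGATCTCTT
Gm35200, chr1:171562024-171562323, minus strand: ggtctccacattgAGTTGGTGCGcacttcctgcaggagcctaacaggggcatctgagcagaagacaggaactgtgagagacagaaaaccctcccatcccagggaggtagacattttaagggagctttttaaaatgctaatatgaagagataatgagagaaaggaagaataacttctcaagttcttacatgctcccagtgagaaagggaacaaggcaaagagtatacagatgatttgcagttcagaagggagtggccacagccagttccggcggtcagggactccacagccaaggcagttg

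The region covered the whole Myt1l window, 163 of the 300 bases at Snd1, 160 at Mical3, 110 at 3110082I17Rik, 41 at Hdac4, 10 at Gm35200 and 2 at Gse1. At Mical3 it ran from -138 to 22 relative to the annotated start, which lies inside the gene. Across the 21 regions at their own promoters, the deposited log2 fold change ran from -0.80 at Cntnap2, an adhesion protein of the neurexin family, to 0.60 at Btg1, an antiproliferative factor. The median was 0.01, 9 of the 21 were negative, and the smallest deposited FDR was 0.384.

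Letters of known binding motifs were counted on both strands in the 36 windows touched by a region and in all 32619 windows of the promoter table. TNAAGTG, the NK2-class motif, was found in 2 of the 36 (5.56%) and in 11.6% of all windows. The Mical3 window is one of the 2, with the match starting at base 80, ahead of the bases the region covers. GGGNGTGG, the KLF-class motif, was found in 6 of the 36 (16.7%) and in 17.7% of all, among them Gse1 (base 198) and Gm35200 (base 247). CAGATG, an E-box, was found in 11 of the 36 (30.6%) against 17.1% of all windows. It occurred at Snd1 (base 12), Myt1l (base 105) and in 2 places at Gm35200. The matches named at Gse1 and Gm35200 all lie outside the bases the region covers, and those at Snd1 and Myt1l lie inside. Some of the 36 windows overlap, and those of Umad1 and its neighbour Rpa3 hold the same CAGATG, counted in each. TGTTTAC (forkhead) and TAATTA (homeodomain) were each found in 1 window, or 2.78%, against 3.67% and 5.25% of all. The RFX motif was in none of the 36 and in 0.690% of all. The windows include bases that no region covered, and their GC content differed, with a median of 58.2% in the 36 and 53.0% in all. A match is a description of letters and not a bound site.

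The number of regions per gene fell off steeply. A single compact region was assigned to 3293 genes, 2 regions to 712, 3 to 266 and 4 to 105, whereas 49 genes had 5, 25 had 6, 13 had 7 and 9 had 8. Above these stood 5 genes with 9, 4 with 10, 1 with 11 and 1 with 12. At the edge of the rule, the 49 genes with 5 regions had a median length of 150 kb and a median deposited log2 fold change of 0.13 over their regions, and the 105 genes left out with 4 regions had 139 kb and 0.09.

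**Figure D1:**
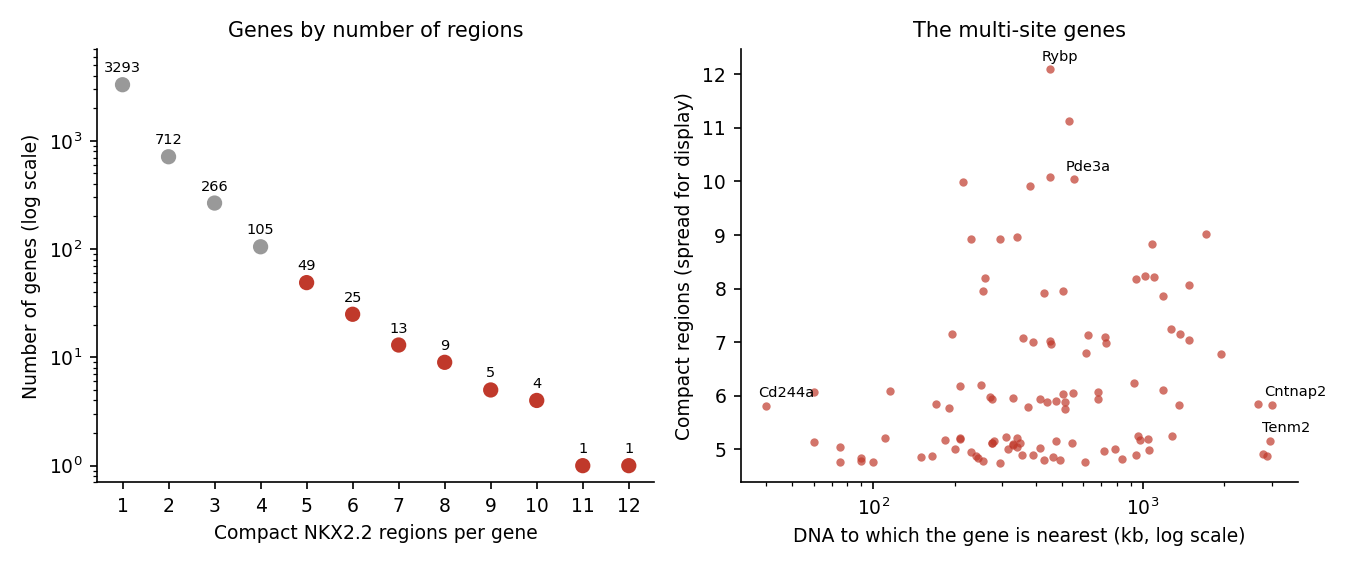
Number of genes (log axis) with 1 to 12 compact NKX2.2 regions, and, for the 107 genes with 5 or more (red), the number of regions against the DNA to which the gene is the nearest coding gene (kb, log axis). From 3293 genes with 1 region the number drops to 1 gene with 12; genes with 5 or 6 regions are spread over DNA from 40 to 3015 kb.

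Long genes in wide gene-free surroundings can collect more regions under a nearest-gene rule, so the DNA available to each gene was measured on a 5 kb grid. The 107 genes had a median length of 193 kb and were nearest to a median of 430 kb, against 33.6 kb and 85 kb for genes with 1 to 4 regions. Pooled over that DNA, the multi-site genes had 9.83 compact regions per Mb, genes with 1 to 4 regions had 6.52, and the mean over all coding genes, those without a region included, was 2.58. Since the rule asks for at least 5 regions, density is not independent of the choice of genes. The lowest density, 0.65 times the mean over all coding genes, was at Tenm2, a teneurin adhesion protein nearest to 2965 kb, and the highest, 58.2 times, at Cd244a, an immune-cell receptor whose 6 regions span 14.5 kb. Of the 1003 genes nearest to over 500 kb, 43 were multi-site and 520 had no compact region, while of all 21627 coding genes 107 were multi-site. How far the width of the surroundings accounts for the number of regions was not tested.

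Inside or outside the gene, the regions divided almost evenly. Of the 666, 336 (50.5%) overlapped their gene and 330 lay outside it, at a median distance of 68.7 kb. All regions were inside at 19 genes, among them Dpp6, Mical3, Cacna1c, Msi2 and Pde4d, and all were outside at 27, among them Rybp, Irs2, Mkln1, Foxa2, Klf4 and Socs3. No region of the 666 overlapped more than 1 coding gene. At the 88 genes whose strand the promoter table gives, 143 of 541 regions (26.4%) lay upstream and 123 (22.7%) downstream. Of the 330 outside regions, 75 overlapped a long non-coding RNA gene, including 4 of the 6 at Foxa2, all in 9030622O22Rik. Neighbouring regions of one gene were a median of 27.1 kb apart, from 1.25 kb at Ptma and Tmem17 to 1043 kb.

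Within 1 kb of an end of a coding gene lay 32 of the 666 regions (4.80%), against 1730 of 5935 (29.1%) at genes with 1 to 4 regions. The share was 41.2% at genes with a single region, 18.6% at genes with 2, 9.52% with 3 and 7.38% with 4, so it declined before the limit of 5 was reached. Over 100 kb from any coding-gene end lay 244 of the 666 (36.6%) against 678 of the 5935 (11.4%). A gene has only 2 ends whatever its number of regions, and this comparison was therefore left without a test. Regions of the 107 genes were also somewhat broader, with a median width of 160 bp and 4 windows against 110 bp and 3 windows.

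**Figure D2:**
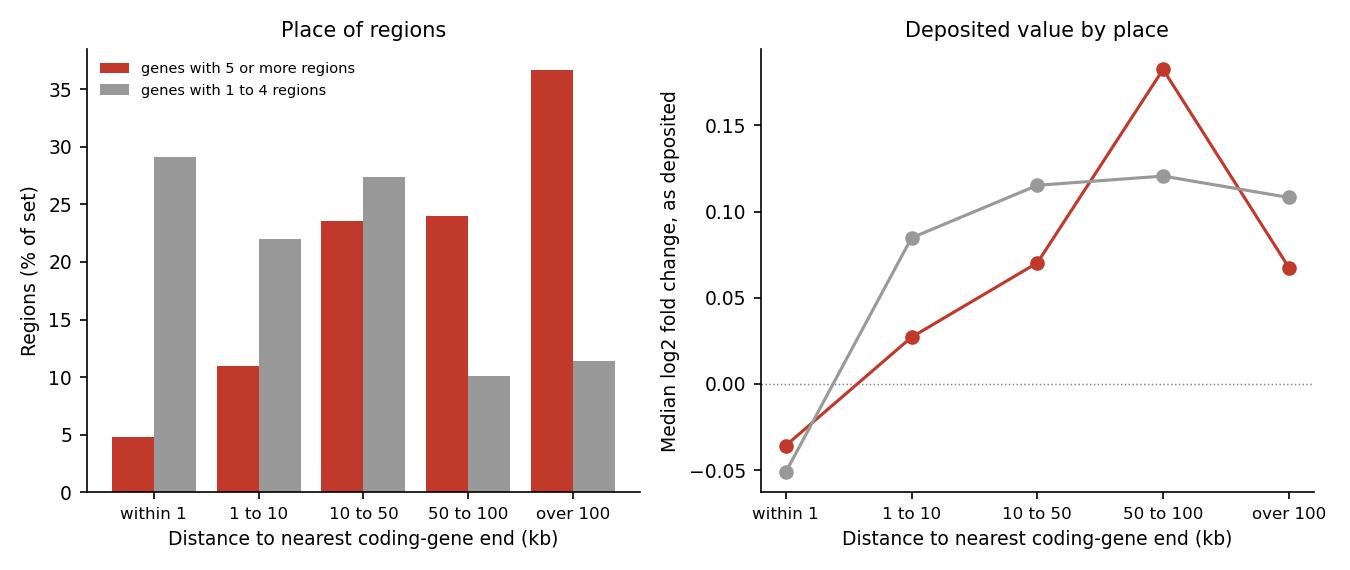
Left, share of regions (%) by distance to the nearest coding-gene end for the 666 regions (red) and the 5935 regions of genes with 1 to 4 (grey). Right, median deposited log2 fold change in the same classes; the median is below 0 only within 1 kb in both sets, at -0.04 and -0.05.

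In the authors' deposited table the log2 fold change of the 666 regions had a median of 0.08, with quartiles of -0.13 and 0.38, against 0.04 over all 6601 compact regions. It was positive in 398 of the 666 (59.8%) and in 57.4% of the compact regions. Regions inside the gene had a median of 0.08 and those outside of 0.07. By distance to the nearest coding-gene end, the deposited median was -0.04 in the 32 regions within 1 kb, 0.03 at 1 to 10 kb, 0.07 at 10 to 50 kb, 0.18 in the 160 regions at 50 to 100 kb and 0.07 beyond. At genes with 1 to 4 regions the same classes gave -0.05, 0.08, 0.12, 0.12 and 0.11.

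The authors' csaw comparison called 6 of the 666 regions (0.901%) different between the ChIP groups, counting those with an FDR up to 0.05, and they fell 1 each on 6 genes. Over all 6758 regions the share was 1.36%, over the compact regions 1.05%, and over the compact regions of genes with 1 to 4 it was 1.06%. Of the 6, 4 were positive (0.601% of the 666 called and positive, against 0.769% of all regions, 0.773% of compact regions and 0.792% at genes with 1 to 4). The other 2 were negative (0.3%, against 0.592%, 0.273% and 0.27%). Without adjustment, 67 of the 666 (10.1%) had p under 0.05, against 11.2% of all regions, 10.5% of compact regions and 10.5% at genes with 1 to 4. The share of called regions was therefore near the background.

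The smallest of the 6 deposited FDR values, 0.00022, belonged to the 10 bp region at Cd244a on chromosome 1 from 171562301 to 171562310, with a log2 fold change of -1.92. This is the region in capitals in the Gm35200 window above, and it lies within the bounds of Cd244a. The other 5 regions of the gene were negative as well, from -0.77 to -0.31 in the deposited table, with FDR values of 0.390 or higher. Actbl2, a beta-actin-like gene of 2.74 kb, had no region inside its bounds. Its called region, on chromosome 13 from 111099251 to 111099510, lies 156 kb away and had a deposited log2 fold change of 0.37 (FDR 0.0043), with 4 of its 6 windows counted as up. The remaining Actbl2 regions ran from -0.26 to 0.50 in the deposited table.

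At 3110082I17Rik, a gene named only by its clone, the called region lies inside the gene on chromosome 5 from 139418701 to 139418960. Its deposited log2 fold change was 0.80 (FDR 0.0093), while the region at the promoter, in capitals above, had -0.01. Between these places the deposited values were 0.74, 0.48 and -0.08. Dpp10 encodes a dipeptidyl peptidase-like protein that accompanies voltage-gated potassium channels. Its 6 regions all lie inside the gene within 67.4 kb, and the called one, on chromosome 1 from 124002701 to 124003010, was listed at 0.52 with an FDR of 0.018. The other 5 lay on both sides of 0, from -0.46 to 0.56 in the deposited table. The value of 0.56 was the highest representative value at Dpp10, yet its deposited FDR was 0.805. The region at -0.46 was listed as mixed, and the deposited log2 fold change of its best window was 0.60.

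Fer1l6, a member of the ferlin family of membrane proteins, held the highest value of all 666 regions. It is a single window on chromosome 15 from 58657251 to 58657260, inside the gene, and its deposited log2 fold change was 1.43 (FDR 0.020). Chl1, an adhesion molecule of the L1 family, held the called region with the smallest absolute log2 fold change, deposited as -0.27 (FDR 0.033). All 6 windows of this region were counted as down. The region lies inside Chl1 on chromosome 6 from 103649051 to 103649310. Of the 9 Chl1 regions 6 were negative in the deposited table, down to -0.70. Over the 6 genes, the 31 regions beside the called ones had deposited FDR values of 0.144 or higher, and 4 of the 31 had an unadjusted p-value under 0.05. Thus no gene had a second region at this threshold.

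Raising the threshold to an FDR of 0.1 added 4 regions. A region 636 kb from Epha7, an ephrin receptor, was listed at -0.67 with a deposited FDR of 0.060. Usp29, a ubiquitin-specific protease, had a region at 1.11 with an FDR of 0.067 in the deposited table. Zfat, a zinc-finger protein, had one 104 kb away at 0.76 (deposited FDR 0.069), and Npvf, a neuropeptide precursor, one 67.0 kb away at 0.42 (deposited FDR 0.092).

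Ranked by number of regions, with ties in alphabetical order, the first 15 genes held 140 of the 666. The last place falls among 9 genes with 8 regions, of which 4 are in the 15 and 5 (Ptprt, Tox3, Ubl3, Wwox and Zbtb20) are not. All 20 genes with 8 or more regions held 180. Of the 15, 11 had a positive and 4 a negative median log2 fold change in the deposited table, and the region at Chl1 was the only one called. Over the 20, 15 medians were positive and 5 negative. Apart from Chl1, the smallest deposited FDR at these genes was 0.118.

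**Figure D3:**
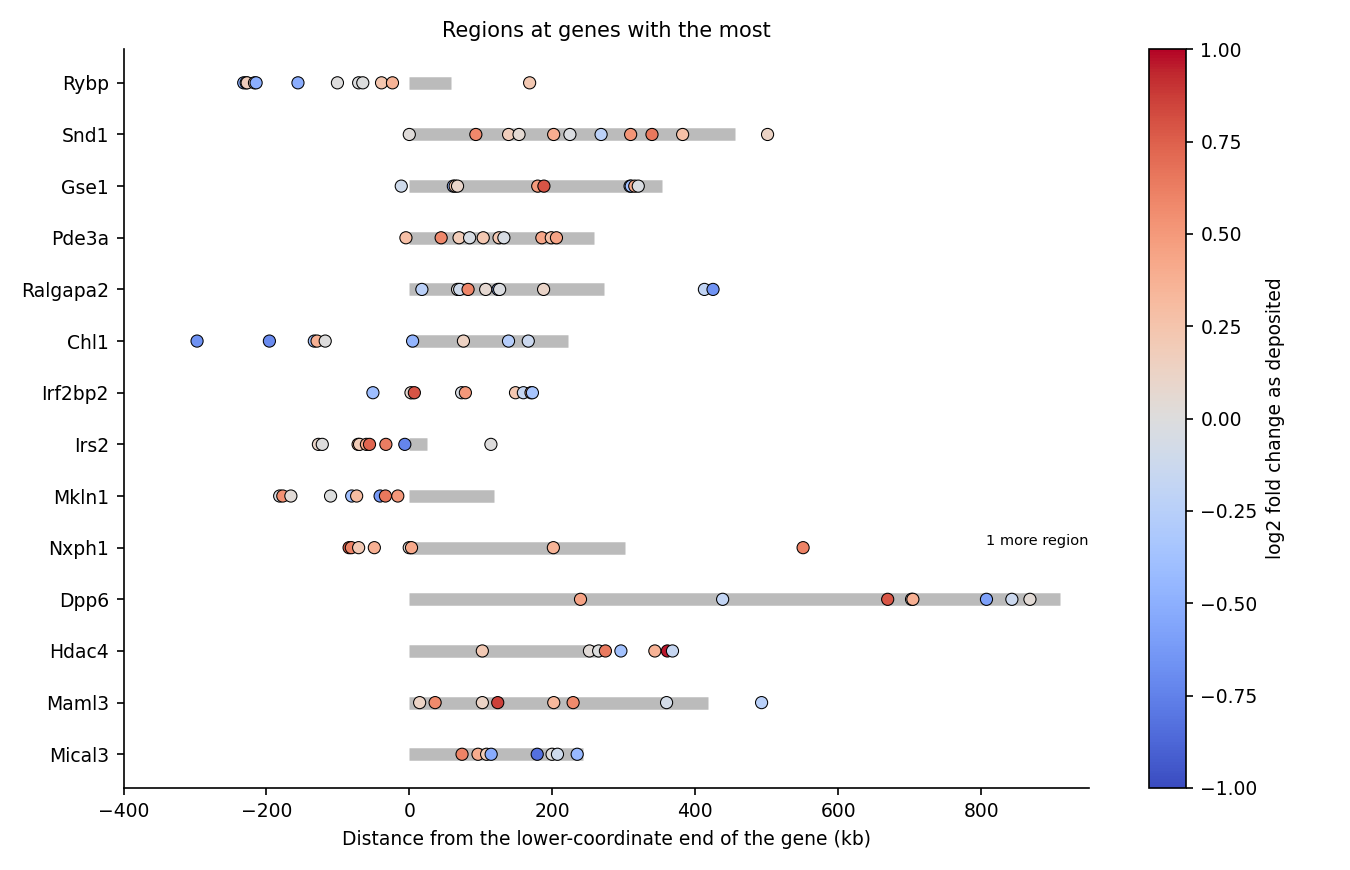
Regions (circles) at genes with the most, with 1 of the 15 not shown, placed by distance (kb) from the lower-coordinate end of the gene, whose body is the grey bar; colour is the deposited log2 fold change, with a scale from -1 to 1. All regions of Dpp6 and Mical3 lie inside the gene and all 12 of Rybp outside; 1 Nxph1 region lies beyond the axis.

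Several of the 15 act in chromatin and transcription. Rybp, which encodes a subunit of Polycomb repressive complex 1, had the most regions, 12. None lay within the gene: 11 stretched below it in coordinates, up to 232 kb away, and 1 lay 109 kb above it. Their deposited log2 fold changes ran from -0.51 to 0.37, with 6 negative and 6 positive. The broadest of them, with 18 windows, had a value of 0.004 in the deposited table. Gse1, a protein found with histone demethylase complexes, had 9 of its 10 inside, and its deposited values ran from -0.43 to 0.79. At both genes the smallest deposited FDR was above 0.65.

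Hdac4, a class II histone deacetylase, had 8 regions, of which 3 overlapped the gene. Its highest deposited log2 fold change, 0.96, was at a region 93.8 kb outside the gene (p = 0.0032, FDR 0.118 by the authors' csaw test). The region at the Hdac4 promoter window printed above, whose start lies inside the gene, was at 0.03. Irf2bp2, a corepressor that partners IRF2, is only 5.69 kb long but had 9 regions across 223 kb, with deposited values from -0.40 to 0.79. Maml3, a coactivator of Notch signalling, had 7 of its 8 regions inside the gene, 6 of the 8 being positive in the deposited table, up to 0.86 (FDR 0.335).

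Others serve signalling and metabolism. Pde3a, a phosphodiesterase that degrades cAMP and cGMP, had 10 regions over 211 kb, 9 of them inside. Of the 10, 8 were positive in the deposited table, the highest at 0.58 (p = 0.0443, FDR 0.419 by the authors' csaw test), and both negative values were -0.04. Irs2, an adaptor of the insulin and IGF1 receptors, had all 9 regions outside its 24.2 kb body. Of the 9, 8 were positive in the deposited table, up to 0.73 at 55.8 kb from the gene (FDR 0.374), while the region closest to the gene, 6.07 kb away, was at -0.73 (FDR 0.619). Neither extreme passed the threshold. The 8 positive values included 0.007 and 0.0005, at regions that the authors listed as mixed. Ralgapa2, a subunit of a GTPase-activating complex for Ral proteins, had 10 regions from -0.66 to 0.59 in the deposited table.

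Snd1, a multifunctional nuclease-domain protein of RNA metabolism, had 11 regions, 9 of them inside its 455 kb body. All but 2 were positive in the deposited table, with a median of 0.17 and a highest value of 0.65 (FDR 0.428), and the promoter region in capitals above was at 0.02. Mkln1, the intracellular protein muskelin, had 9 regions, all outside the gene, between -0.63 and 0.65 in the deposited table. Mical3, an actin-regulating monooxygenase involved in vesicle exocytosis, had 8 inside the gene, down to -0.84 at a deposited FDR of 0.140.

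Genes known from neurons were present as well. Nxph1 encodes neurexophilin, a secreted ligand of alpha-neurexins. All 9 of its regions were positive in the deposited table, from 0.02 to 0.75 with a median of 0.38, and the smallest FDR was 0.154. They extend over 1490 kb, with 2 inside the gene and 1 at a distance of 1105 kb. Dpp6, which like Dpp10 accompanies potassium channels, had 8 regions inside the gene, 4 positive and 4 negative in the deposited table, from -0.58 to 0.78.

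The signs of the regions of one gene were then compared. Of the 107 genes, 6 had regions of 1 sign throughout in the deposited table. These were Nxph1 (9 regions), the transcriptional corepressor Rere (7), Cmip (5) and the ubiquitin ligase gene Pja1 (5), all positive, and Cd244a (6) and Zfp386 (5), all negative. Among genes with 2, 3 and 4 regions the share with 1 sign was 53.2%, 31.6% and 18.1%, and among those with 5 it was 6.12%. A shared sign becomes less likely with each further region whatever the locus, so the count is a description and was not tested. The difference between the highest and the lowest region of a gene had a median of 0.91 on the log2 scale, and ran from 0.29 to 1.93 over the 107 genes.

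Adjacent regions of the same multi-site gene had the same sign in 288 of 559 pairs (51.5%), at a median gap of 27.1 kb. The share was 54.1% of 1559 pairs at genes with 2 to 4 regions, at a median gap of 32.0 kb. It was 51.8% of 4463 neighbouring pairs that belong to different genes, which lay farther apart (median gap 203 kb). For the 78 pairs of multi-site genes under 5 kb apart it was 51.3%. Pearson's r between adjacent values was 0.27 over these 78 pairs, 0.10 without the 4 pairs of Cd244a, and -0.02 over the 158 pairs at 5 to 20 kb. All pairs rest on the same libraries. At Socs3, a suppressor of cytokine signalling, a pair under 5 kb apart had deposited values of -0.46 and 0.85.

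**Figure D4:**
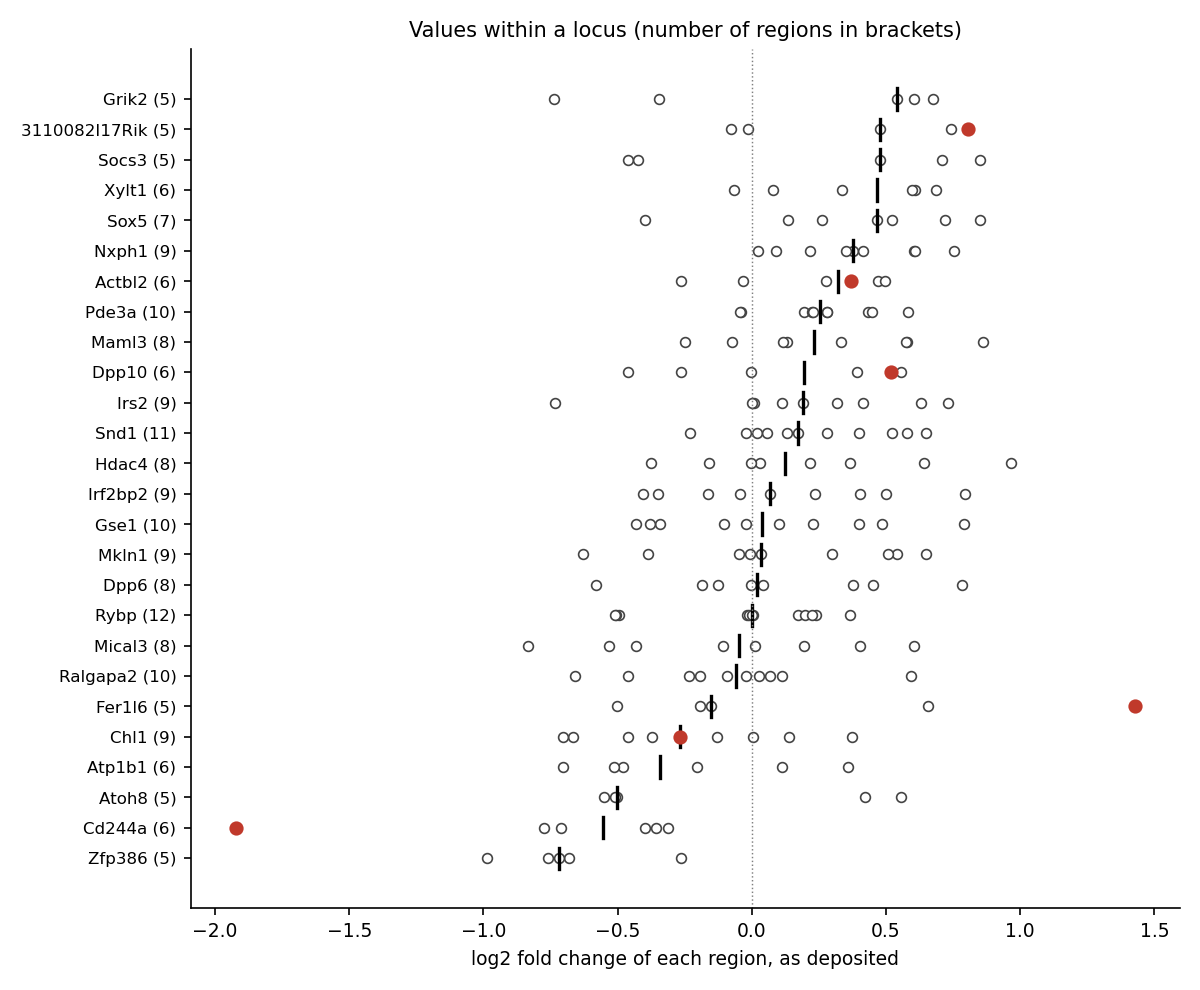
Deposited log2 fold change of each region (circles) at the genes with the most regions (1 of the 15 not shown), the 6 with a called region and the 5 with the highest and the 5 with the lowest median; red circles have an FDR of 0.05 or lower, and black bars are medians. Values spread to both sides of 0 at all genes shown except Nxph1, Cd244a and Zfp386.

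The medians of the 107 genes were positive for 75 and negative for 32. The highest were at Grik2, a kainate receptor subunit (0.54), 3110082I17Rik (0.48), Socs3 (0.48), Xylt1, a xylosyltransferase (0.47), and Sox5, an SRY-box transcription factor (0.47). Each of these had at least 1 negative region in the deposited table. At Grik2 the 5 regions extend over 2165 kb, the widest spacing of the set by median gap (545 kb), and their deposited values ran from -0.74 to 0.67.

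The lowest medians were at Zfp386, a zinc-finger protein (-0.72), Cd244a (-0.55), Atoh8, a basic helix-loop-helix factor (-0.50), Atp1b1, a sodium-potassium pump subunit (-0.34), and Chl1 (-0.27). The 5 regions assigned to Zfp386 ran from -0.99 to -0.26 in the deposited table, with 4 unadjusted p-values under 0.05 and FDR values of 0.261 or higher. They lie 406 to 1122 kb from Zfp386, and all 5 overlap Igh, the immunoglobulin heavy chain complex, which the gene table does not class as protein-coding. The name Zfp386 thus stands here only for the nearest coding gene. At Atoh8, 3 deposited values between -0.55 and -0.50 stood beside 0.42 and 0.55.

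Gene lists for islet and neuroendocrine functions were then read against the multi-site genes. Together they, 8 in number, held 436 different genes, and 27 of the 107 genes, with 183 regions, were on at least 1 of them. Of all genes with a compact region 2.39% were multi-site, and the lists were chosen with earlier results of these data known. Their counts were not adjusted for gene length or for the DNA around each gene. Of 55 islet transcription factor genes, 34 had a compact region and 7 had 5 or more. These 7 carried 44 regions, 28 positive and 16 negative, with a median of 0.07 in the deposited table, against 0.04 over all compact regions. None was called, and the smallest deposited FDR was 0.158.

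Foxa2, a forkhead factor that opens chromatin in endoderm, had 6 regions, none in its 4.09 kb body. They lay between 49.7 and 167 kb from it, with deposited log2 fold changes of -0.25, 0.22, 0.00, -0.61, 0.20 and -0.13 in coordinate order. For the value of -0.61 the authors' csaw test gave p = 0.0319 (FDR 0.365). Klf4, the gene targeted by the siRNA, also had 6 regions outside the gene, at 0.476 to 406 kb, and 4 of them were negative. The deposited value of the closest was -0.08 and that of the farthest 0.70 (FDR 0.514). Only the closest 2 of these lie within 10 kb of Klf4.

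Sox5 had 7 regions, 6 of them positive in the deposited table, up to 0.85 (p = 0.0184, FDR 0.278 by the authors' csaw test) at a place 1.76 kb outside the gene. Tox3, a high-mobility-group protein, had 8 regions over 769 kb, from -0.32 to 0.40 in the deposited table. Myt1l, a zinc-finger factor of neuroendocrine cells, had 7. Its deposited values stayed between -0.09 and 0.28, one of the narrower ranges of the set, and the region that covers the promoter window printed above was at 0.23. The nuclear factor I genes Nfia and Nfib had 5 each, and a region 130 kb from Nfib was listed at 0.88 (p = 0.0060, FDR 0.158 by the authors' csaw test).

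Among 54 genes of alpha-cell hormones and secretion, 31 had a compact region and 2 were among the 107. Pam, the enzyme that amidates peptide hormones, had 7 regions with a deposited median of 0.33, the highest being 0.60 (FDR 0.340). Syt13, a synaptotagmin of endocrine cells, had 7 from -0.41 to 0.77. Of 62 genes of cAMP and G-protein signalling, 34 had a region and 5 were multi-site, namely Pde3a, Pde4d and Pde10a, phosphodiesterases, Prkce, a protein kinase C, and Rapgef4, the cAMP sensor EPAC2 of insulin-secreting cells. Their 34 regions had a median of 0.15 in the deposited table, 21 being positive, and none was called (smallest FDR 0.419). At Pde10a 1 of 6 regions was positive, against 8 of 10 at Pde3a, a difference that was not tested. The Pde10a median was -0.06, and its positive region, at 0.64, had the largest deposited value of the gene in either direction.

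Of 90 adhesion and axon guidance genes, 59 had a region and 6 were multi-site: Chl1, Ptprt, Cdh13, Cntnap2, Epha7 and Tenm2. They carried 39 regions with a deposited median of 0.04, and the Chl1 region listed as down was the 1 called. Of 51 chromatin regulators and corepressors, 30 had a region, and 3 were multi-site, among them Hdac4 and Auts2, with 25 regions, a deposited median of 0.00 and no call. Of 54 voltage-gated and potassium channel genes, 25 had a region and only Cacna1c, the pore-forming subunit of an L-type calcium channel, was multi-site. Its 7 regions lie within the gene, and the widest, 860 bp, was listed at 0.94 with an FDR of 0.345. Of 53 genes in insulin and growth factor signalling, 25 had a region and 2 were multi-site, Irs2 and Gli2, a Hedgehog pathway factor. Of 21 beta and delta cell marker genes 6 had a region. The zinc transporter gene Slc30a8 was the multi-site one, with 5 regions from -0.29 to 0.35 in the deposited table.

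By density inside the gene body, leading genes with at least 5 regions inside included Ece1, which encodes endothelin-converting enzyme, with 4.85 regions per 100 kb of gene, and Pde3a with 3.49. All 5 Ece1 regions were inside the gene, with deposited values from -0.03 to 0.77 and a smallest FDR of 0.405.

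The multi-site genes were unevenly spread over chromosomes. Chromosome 6 held 125 of the 666 regions (18.8%) at 17 genes, while it held 9.57% of compact regions and 5.21% of coding genes. Chromosome 1 followed with 83 regions at 14 genes, and chromosome 8 with 75 at 11. Chromosome 7, which has 9.39% of coding genes, had 12 regions at 2 genes (1.80%), and chromosome 19 had none. Of the genes with any compact region, 4.76% were multi-site on chromosome 6 and 4.38% on chromosome 8, against 0.62% on chromosome 7. Compact regions as a whole were densest on chromosome 6, at 4.33 per Mb, and sparsest on X, at 0.50, and on chromosome 14, at 0.68. Of the 20 genes with 8 or more regions, 7 lie on chromosome 6. The copy number of each chromosome in this line is unknown here and the input libraries were not analysed, so these shares are not set against the amount of DNA. The median deposited log2 fold change was 0.17 on chromosome 6 and 0.00 on chromosome 1, where 42 of 83 values were negative.

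**Figure D5:**
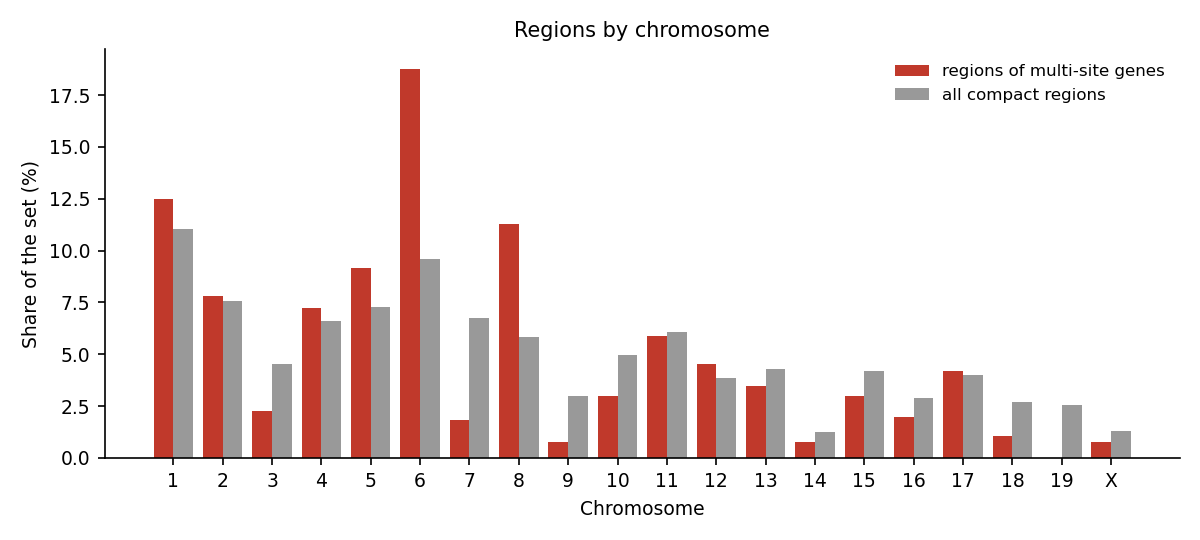
Share of regions (%) on each chromosome for the 666 regions of multi-site genes (red) and all 6601 compact regions (grey). Chromosome 6 carries 18.8% of the red and 9.57% of the grey set; chromosome 19 has no red bar.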

How the data were processed

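The submitters' processing notes list FastQC, Bowtie2, MACS2 and the build mm10 without roles, and per the labels' design text csaw compared the ChIP groups. Versions, window filters, normalization, covariates and use of the inputs are not given in the sources used here. Per the file headers, the authors deposited log2 fold changes of a representative and a best window, p-values with adjusted values, and window numbers for each region; no counts per library. Region positions and window numbers were used as deposited.

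Genes came from RefSeq GRCm38.p6 (21627 protein-coding genes on chromosomes 1 to 19 and X). A region overlapping several genes, or equally near to them, went to the gene whose end was closer to its midpoint. Exons and introns were not distinguished. All 6758 deposited FDR values matched the p-values after Benjamini-Hochberg adjustment to within 1e-06. An edgeR fit was foreseen only for counts per library, which the table does not hold. Set members are described by counts and medians, without tests, because positions from this table chose them. The assignment and adjustment functions were tested on simulated data.

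The gene set and all lists were chosen with earlier results of these data known. Genes named are those with a called region, the 15 with the most regions (ties by symbol), the 5 highest and 5 lowest medians, 3 by density inside the gene, and members of 8 lists; others named were chosen after their values were seen. The values of 1 gene under this rule are not reported here. The 95% interval of the median is from order statistics; alternatives for shares were read against 95% Wilson intervals. Both describe regions of this table only. Scripts ran under Python 3.11.15 with pandas 2.3.3, numpy 2.4.6, matplotlib 3.10.9 and scipy 1.17.1. Some promoter windows, including all of chromosome 18, and all input libraries were not analysed here.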

Additional observations from a re-analysis of the deposited data

How the results depend on the processing

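No paired analysis was possible because library names and replicate numbers are missing from the deposited columns; for the same reason no replicate was left out. The 666 regions and 107 genes became 1086 and 212 with a minimum of 4 regions, 421 and 58 with 6, and 205 and 32 when only regions overlapping the gene counted. With genes of all types, added once the data had been seen, they became 292 and 48, of which 41 were among the 107. Widths of up to 500 bp or without a maximum, and a distance limit of 100 kb, left between 77 and 111 genes. The 6 called regions became 3 at an FDR of 0.01, 10 at 0.1, 12 with a minimum of 4 regions and 3 with genes of all types; they stayed 6 with the FDR over compact regions or of the best window, and were 4 with a minimum of 6. The median log2 fold change of 0.08 (95% interval 0.03 to 0.12) was 0.21 with best windows and between 0.06 and 0.10 in the other 5 alternatives. The interval takes regions as independent, although they share genes and libraries. The median over all compact regions, 0.04, lies within it. Genes with 1 sign throughout, 6, became 14 with best windows, 25 with a minimum of 4 regions and 3 with 6. The share within 1 kb of a gene end, 4.80%, was 8.41% with a limit of 3 kb and 7.44% within 1 kb of any RefSeq start, the latter also added later. The cause of changes not fixed by construction was not tested. Depth is unknown, so a region without a call is not shown to be unaffected.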

Other observations

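The width limit left out 8 regions wider than 1000 bp at 7 of the 107 genes. At Cd244a 2 such regions, 1360 and 1110 bp wide, were listed at -1.10 (FDR 0.094) and -0.65 (FDR 0.552) in the authors' deposited table, of the same sign as its 6 compact regions. At Zfp386 a 1410 bp region was listed at -0.89 with a deposited FDR of 0.135. The remaining 5, at 1700056E22Rik, Cdh13, Npvf, Trib1 and Zfp608, had deposited values from -0.25 to 0.62 and FDR values of 0.701 or higher. The widest regions kept, at 960 bp, were 2 at Irf2bp2 and 1 at Tomm20.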
